A study of Oryza sativa Japonica Group with 6 samples.

Results

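Predicted hairpin miRNAs of rice anthers were examined, namely those whose names begin with PC- and whose sequences are not 24 nt long. The members were every such entry in the deposited tables, and there were 48 of them among 486 miRNAs. The other predicted miRNAs, 96 in number, are 24 nt long. The names give no known family, and 5p or 3p in a name states the hairpin arm from which a sequence was predicted to come (27 members are 5p and 21 are 3p).

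The anthers came from Taichung65-4x, an autotetraploid rice, and from Taichung65-2x, the diploid japonica line from which it was made by colchicine doubling of the chromosomes. Taichung65-4x had been selfed for over 20 generations, so it is 1 doubled line and not a set of independent doublings. The 3 stages were pre-meiotic interphase (PMA), meiosis (MA) and the single microspore stage (SCP). Florets at PMA, MA and SCP were 3.50 to 4.00, 4.80 to 5.30 and 6.50 to 7.00 mm long in Taichung65-4x, and 2.50 to 3.00, 3.80 to 4.30 and 5.50 to 6.00 mm long in Taichung65-2x. Whole anthers were used, in which fewer cells of a type and less RNA per cell cannot be told apart. Each ploidy and stage has 1 small RNA library and no replicate, so every comparison is of 2 libraries, and nothing measures the spread between plants.

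In plants, Dicer-like proteins cut hairpin precursors into a duplex of a guide strand and its partner, with short 3′ overhangs. The most common product is 21 nt long, whereas 22-nt miRNAs can trigger the production of secondary small RNAs from their targets, and 24-nt small RNAs mostly come from another Dicer-like protein and act on chromatin. The first base of a small RNA influences which Argonaute protein takes it up, with U favoured by AGO1. In grass anthers the 22-nt miR2275 triggers phased 24-nt small RNAs around meiosis.

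The members with the highest levels, or on which the comparisons turn, have these mature sequences, written 5′ to 3′ as in the tables (T for U), with the seed, bases 2 to 8, in capitals. The 48 members had 48 distinct seeds, so none of these shares a seed with another member.
PC-3p-4030_4031: tTGGGGAAcgcgccgatcgtc
PC-5p-11519_1490: aGAGTTGTaggaaactgaact
PC-5p-86809_361: tAGTGACTcaatcatcgagaa
PC-3p-37951_581: tTTAGTTTataagtgggtttc
PC-5p-29441_748: tACCATGAgataccaaatttt
PC-3p-75342_274: tTCAGTTTcctccaacatctta
PC-5p-72318_316: tTGCAAGAatgccactcgaaa
PC-5p-212981_133: tCCGGGCCaggaaccaattt
PC-3p-120829_194: cAAGGACCgtaaaatggctct
PC-5p-114888_188: tTTTGTTTgtatgatgctggc
PC-3p-98404_354: aAAGATATacttaccagtcgat
PC-5p-1920926_12: cGTCCCATaatgttgcaacct

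Only 2 members shared a seed with a miRNA outside the group. The seed of PC-3p-75342_274 occurs in 2 entries of the miR2275 family, shown here because they tie a predicted miRNA to a known one. The other member, PC-5p-744469_21, has the seed of osa-miR1876.
PC-3p-75342_274: tTCAGTTTcctccaacatctta
zma-miR2275b-3p_1ss22AG: tTCAGTTTcctctaatatctcg
zma-miR2275b-3p_1ss10CT: tTCAGTTTcttctaatatctca
Aligned over its 22 bases, PC-3p-75342_274 also differed from mes-miR2275 at 3 positions. It is therefore a miR2275-like sequence that carries a predicted name.

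Among 1128 pairs of members, 3 could form a duplex of at least 17 aligned bases with at most 3 unpaired positions and 3′ overhangs of 1 to 3 bases at both ends. These pairs are shown because a guide strand and its partner from 1 hairpin have this form. Capitals mark paired bases, G with T included. In the first pair 19 bases paired without a break, with overhangs of 2 bases at both ends.
PC-3p-120213_185: CGCATGCGAAAATAGATCTtc
PC-3p-236902_88: AGATCTATTTTCGCATGCGgc
Both strands of that pair are named 3p, so by their names they are not opposite arms of a hairpin. In the second pair 17 of 19 aligned bases paired, again with overhangs of 2 bases.
PC-3p-4030_4031: TTGGGGAACGCGccGATCGtc
PC-5p-139435_151: CGATCaaCGCGTTCCCCAAtt
In the third pair 15 Watson-Crick pairs and 1 G-T pair formed over 19 aligned bases, with a 3′ overhang of 3 bases on PC-3p-75342_274 and of 2 bases on PC-5p-11519_1490.
PC-3p-75342_274: TTCAGTTTCCTcCAACaTctta
PC-5p-11519_1490: aGaGTTGtAGGAAACTGAAct
This pair joins the miR2275-like member to the second most abundant member. A pairing match is a description of the letters, and no hairpin precursor was examined here. Among 21024 pairs of a member with another miRNA, 6 met the same criterion. They included PC-3p-398029_46 with osa-miR168a-5p (5 G-T pairs) and PC-5p-235406_81 with osa-MIR5529-p5 (9 G-T pairs), whose partners are named for other hairpins. The criterion alone thus does not show that strands share a hairpin.

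Other members overlapped on the same strand, so their levels may not be independent, which was not tested. PC-3p-67260_339 and PC-3p-87040_284 are the same sequence shifted by 1 base, with the 20 shared bases in capitals.
PC-3p-67260_339: AGATGGCTGATACTCGAACTc
PC-3p-87040_284: tAGATGGCTGATACTCGAACT
Another 2 members shared 12 bases, and both are listed for Taichung65-2x alone.
PC-3p-398029_46: ACGCTTTGGACCgggtggccc
PC-5p-144485_166: tcaaatgttACGCTTTGGACC
The whole of PC-3p-314191_76 lies at the 3′ end of a predicted miRNA of 24 nt, PC-5p-146318_134.
PC-3p-314191_76: AACTTTATGTTGGCACTGACT
PC-5p-146318_134: aagAACTTTATGTTGGCACTGACT
In that case the 24-nt form had the higher level in 5 of the 6 libraries, the exception being SCP in Taichung65-2x.

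The members were mostly 21 nt long. Of the 48, 39 were of 21 nt, 3 of 22 nt and 2 of 23 nt, and the lengths of 18, 19, 20 and 25 nt had 1 member each. The first base was T in 26 (54.2%), A in 10, C in 10 and G in 2. T led 51.1% of the 276 other miRNAs that are not 24 nt, and 4.17% of the 96 predicted miRNAs of 24 nt, of which 74.0% began with A. In first base the members thus stood beside the other miRNAs of their length and apart from the predicted miRNAs of 24 nt. G was the exception, leading 4.17% of the members and 19.2% of the other miRNAs not 24 nt. The GC content of the members had a median of 42.9% (range 28.6% to 71.4%), against 50% in the other miRNAs not 24 nt. The members were chosen by length, so their lengths are a description of the choice.

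**Figure D1:**
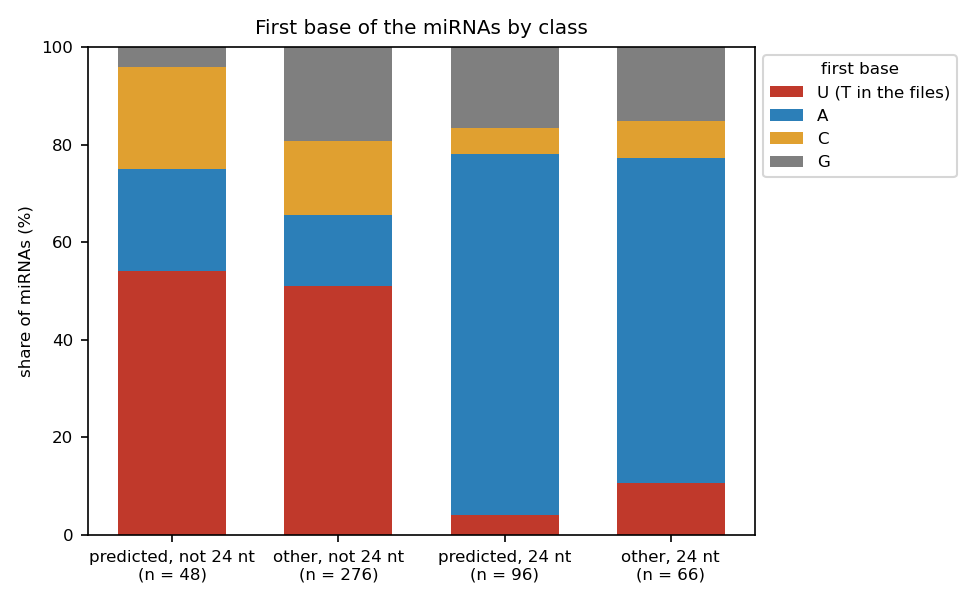
Share of miRNAs (%, vertical axis) by first base in 4 classes (horizontal axis), as stacked bars that sum to 100%. T leads 54.2% of the predicted miRNAs not 24 nt and 4.17% of the predicted miRNAs of 24 nt, in which A leads 74.0%.

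Levels are the normalized values of the authors, in which 1 read of Taichung65-4x was worth 1.36, 0.906 and 0.797 at PMA, MA and SCP, and 1 read of Taichung65-2x was worth 1.35, 0.944 and 0.888. On this scale a level of 10 stood for 7.36 reads in the PMA library of Taichung65-4x and for 12.5 reads in its SCP library. Most members were rare. The highest value of a member over the libraries had a median of 21.6, 21 of the 48 never reached 20, and 7 exceeded 50 in some library. The members summed to 1716, 882 and 567 at PMA, MA and SCP in Taichung65-4x, which was 1.32%, 1.02% and 0.918% of the signal of all listed miRNAs. Their sums in Taichung65-2x were 1693, 1346 and 730, or 1.30%, 1.26% and 0.942%. The sums at PMA were close in both ploidies, and at MA the sum was lower in Taichung65-4x. The fall of these sums with the stage depends on the scale of the authors. As reads per 1000000 clean reads, the members came to 216, 168 and 164 at PMA, MA and SCP in Taichung65-4x, against 200.1, 207 and 205 in Taichung65-2x, where they hardly changed.

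**Figure D2:**
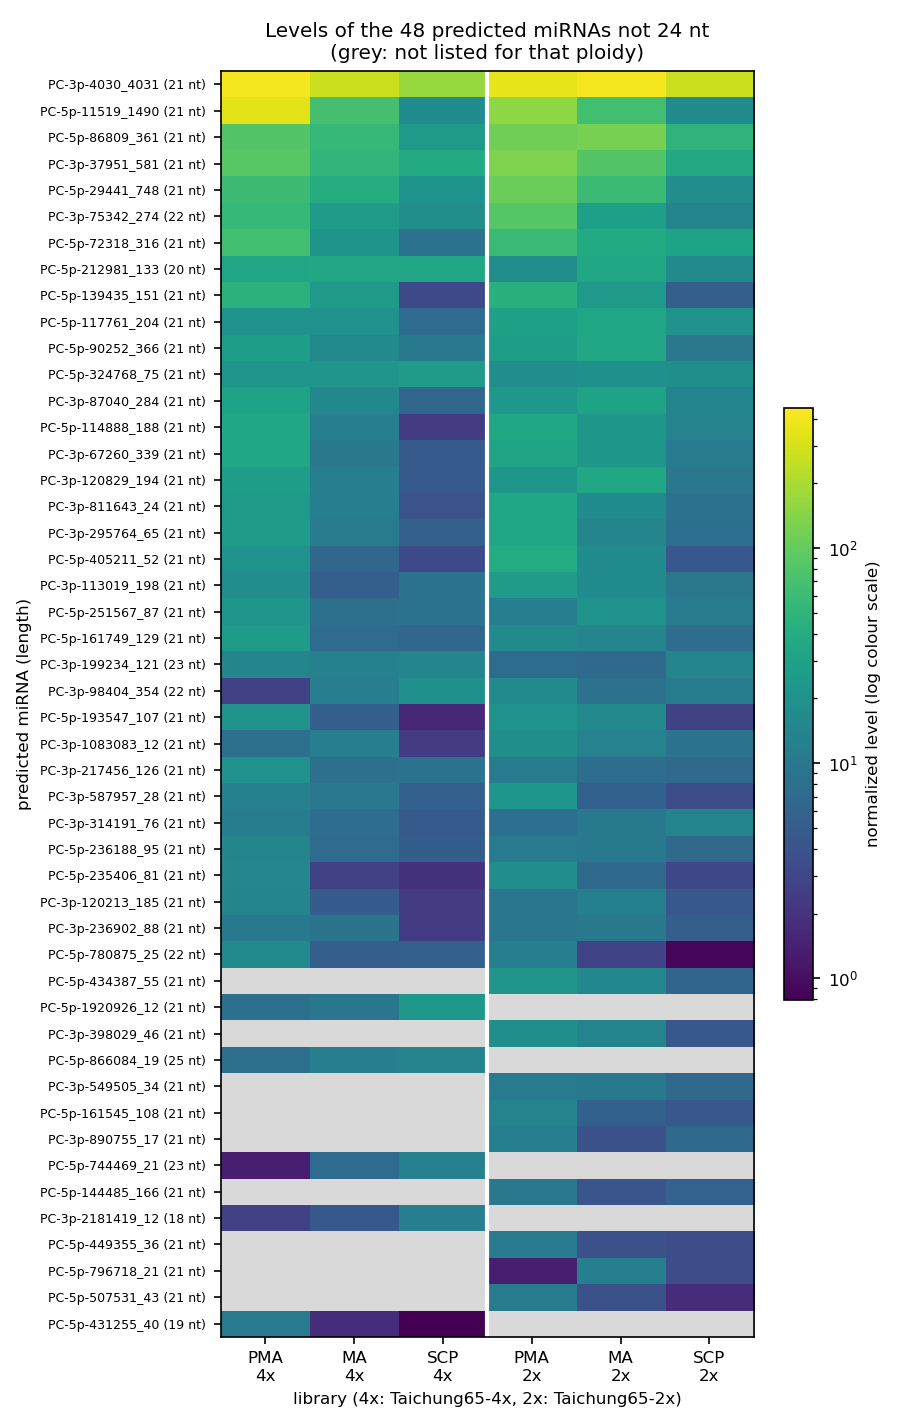
Normalized level (log colour scale) of the 48 members (rows, ordered by their sum over the libraries, with lengths) in the 6 libraries (columns, Taichung65-4x left). Grey marks a miRNA not listed for a ploidy. PC-3p-4030_4031 has the highest level in every library, and most rows darken towards SCP.

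Which members were found in both ploidies was asked first. A table lists a miRNA whose level exceeded 10 in at least 1 stage of that ploidy. Of the 48 members, 34 were listed for both ploidies, 5 for Taichung65-4x alone and 9 for Taichung65-2x alone. Matching the members by sequence instead of by name gave the same numbers. Among all 486 miRNAs, 357 were listed for both ploidies, 84 for Taichung65-4x alone and 45 for Taichung65-2x alone. All 9 members of Taichung65-2x alone were of 21 nt. The 192 other miRNAs of 21 nt also leaned this way, with 17 listed for Taichung65-2x alone and 6 for Taichung65-4x alone. Of the 5 of Taichung65-4x alone, 1 each was of 18, 19, 21, 23 and 25 nt. Most of the members listed once stood near the listing limit, so an unlisted member can have had a level up to 10 in the other ploidy.

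The member of Taichung65-4x alone with the highest level, PC-5p-1920926_12, had 8.15, 9.51 and 23.1 at PMA, MA and SCP. PC-5p-866084_19, of 25 nt, had 8.15, 11.8 and 13.6. PC-5p-744469_21, of 23 nt, had 1.36, 7.25 and 12.8. These 3 miRNAs were highest at SCP, as was PC-3p-2181419_12, of 18 nt, with 2.72, 4.53 and 11.96. The exception was PC-5p-431255_40, of 19 nt, with 10.9, 1.81 and 0.797, the last of these being 1 read. Among the members of Taichung65-2x alone, PC-5p-434387_55 had 21.5, 15.1 and 6.22, and PC-3p-398029_46 had 18.9, 13.7 and 4.44. PC-5p-161545_108 had 13.5, 5.66 and 4.44. In this list 8 of 9 were highest at PMA. The exception was PC-5p-796718_21, with 1.35, 12.3 and 3.55. Its MA level was 9.11-fold higher than its PMA level (counting interval 1.37 to 387), where 1 read was found at PMA. This member was listed through that MA level, so the fold and its interval are not independent of the listing. Of the members listed for 1 ploidy, 4 of 5 in Taichung65-4x and 6 of 9 in Taichung65-2x passed 10 in 1 library only. For these the stage of the highest level is the stage that had them listed. Counting intervals here and below are at 95% from the reads of 2 libraries, on the scale of the authors. They are given where both levels are whole numbers of reads, and cover counting error only. Where a member was picked by its ratio, its interval comes from the same reads and is not independent of the pick.

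The most abundant member was PC-3p-4030_4031, the 3p strand of the second pair. It had 410, 271 and 170 at PMA, MA and SCP in Taichung65-4x, against 358, 409 and 271 in Taichung65-2x. Its levels fell at each stage in Taichung65-4x and were highest at MA in Taichung65-2x, and the ploidies differed by less than 2-fold at every stage. At MA it was 1.51-fold lower in Taichung65-4x (counting interval 1.30 to 1.75). The interval at PMA included 1, and at SCP there was none. Its partner PC-5p-139435_151 had 46.2, 24.5 and 3.19 in Taichung65-4x, against 44.4, 24.5 and 5.33 in Taichung65-2x. The 3p strand exceeded the 5p strand by 8.88, 11.1 and 53.2 times in Taichung65-4x and by 8.06, 16.7 and 50.9 times in Taichung65-2x. The excess of the 3p strand was therefore greatest at SCP in both ploidies, where the 5p strand rests on 4 reads in Taichung65-4x and 6 reads in Taichung65-2x.

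The pair that holds the miR2275-like sequence behaved otherwise. PC-5p-11519_1490 had 349, 69.8 and 16.7 at PMA, MA and SCP in Taichung65-4x, against 152, 66.5 and 16.9 in Taichung65-2x. Its partner PC-3p-75342_274 had 55.0, 25.8 and 18.3 in Taichung65-4x, against 84.8, 28.3 and 14.2 in Taichung65-2x. Thus at PMA the 5p strand was higher and the 3p strand had the lower value in Taichung65-4x, while at MA and SCP the ploidies were close for both. The 5p strand stood at 6.35, 2.70 and 0.913 times the 3p strand in Taichung65-4x, and at 1.79, 2.35 and 1.19 times in Taichung65-2x. Only the 3p strand of the pair lay within 3 mismatches of a miR2275 entry, and looser likeness of the 5p strand was not scored. The related entry zma-miR2275b-3p_1ss22AG had 801 at PMA in Taichung65-4x against 1711 in Taichung65-2x. Since these 3p sequences are alike, PC-5p-11519_1490 also met the pairing criterion with 4 of the miR2275 entries. Which of them is its partner cannot be told apart from these tables. Of the 5p entries of miR2275, zma-miR2275b-5p_1ss12CG had 4403 at PMA in Taichung65-4x against 4562 in Taichung65-2x. Another, osa-MIR2275a-p5, had 21.7 against 19.5.

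**Figure D3:**
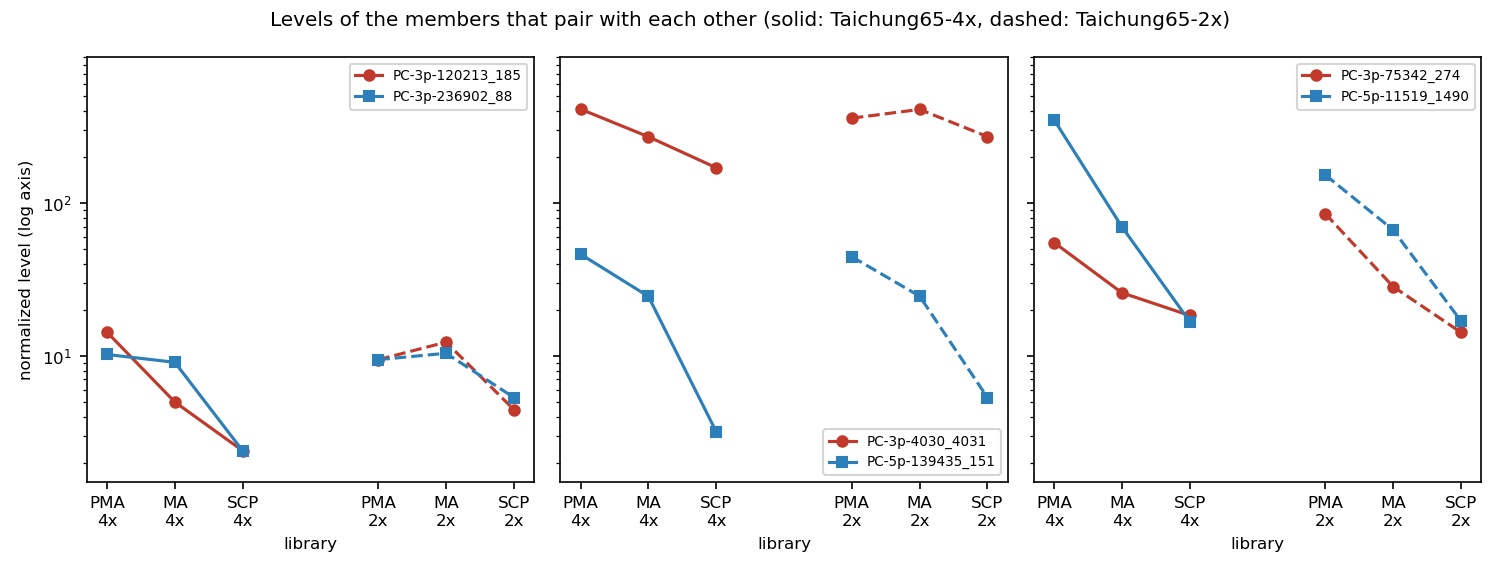
Normalized level (log axis) of the 3 pairs of members that can form a duplex, in the 6 libraries (horizontal axis, solid lines for Taichung65-4x and dashed lines for Taichung65-2x, circles and squares for the strands of a pair). PC-3p-4030_4031 lies above its partner in every library, and PC-5p-11519_1490 is furthest above PC-3p-75342_274 at PMA in Taichung65-4x (349 and 55.0).

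For the first pair, the strands stayed close to each other. PC-3p-120213_185 had 14.3, 4.98 and 2.39 in Taichung65-4x, against 9.43, 12.3 and 4.44 in Taichung65-2x. PC-3p-236902_88 had 10.2, 9.06 and 2.39 in Taichung65-4x, against 9.43, 10.4 and 5.33 in Taichung65-2x. The ratio of the strands lay between 0.550 and 1.40 over the 6 libraries, and neither strand was in excess throughout.

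To ask which members differed between the ploidies at a stage, a member was tested where the larger of 2 levels exceeded 10, and it was called where the levels differed by more than 2-fold. Where a ploidy did not list a member, a level of 10 was assumed, and such folds are lower bounds. Of the 48 members, 20 were called at 1 stage or more and 28 at none. In all, 17 of the 20 were lower in Taichung65-4x and 3 were higher, and none was called in both directions. Of the 154 miRNAs called at any stage, 78 were lower, 68 were higher and 8 went both ways. With the libraries scaled to equal sums, 15 members were called, of which 10 were lower, 4 were higher and 1 went both ways, beside 38, 99 and 14 of 151 miRNAs. A member listed for 1 ploidy can differ only towards that ploidy, so these numbers describe the members and do not test them.

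At PMA few members differed. Of 43 tested, 1 was higher and 3 were lower in Taichung65-4x. Over all 397 miRNAs tested, 5.54% were higher and 5.54% were lower, so the members stood near the background. The median log2 ratio of the 34 members in both tables was 0.08, against 0.00 for all miRNAs. The member that was higher was PC-5p-11519_1490, with 349 in Taichung65-4x and 152 in Taichung65-2x (2.29-fold, counting interval 1.83 to 2.89). PC-3p-98404_354, of 22 nt, was lower, with 2.72 in Taichung65-4x and 16.2 in Taichung65-2x. The ratio was 5.95 (1.32 to 54.7) and rests on 2 reads in Taichung65-4x. PC-3p-1083083_12 was also called lower, with 8.15 and 18.9, but its interval reached from 0.835 to 7.34. PC-5p-434387_55, not listed for Taichung65-4x, was at least 2.15-fold lower there.

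At MA the members were lower in Taichung65-4x more often. Of 35 tested, none was higher and 10 were lower (28.6%). Among all 380 miRNAs tested, 5.26% were higher and 9.21% were lower, and among the 169 other miRNAs of 21 nt, 16 were lower (9.47%). The median log2 ratio of the 30 members in both tables was -0.63, against -0.26 for all miRNAs in both tables, and 26 of the 30 had the lower value in Taichung65-4x, as did 220 of all 330 miRNAs in both tables (66.7%). In contrast, the predicted miRNAs of 24 nt had a median of 0.56.

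Most of the members lower at MA were of modest level. The exception was PC-5p-86809_361, the third most abundant member, with 53.4 in Taichung65-4x and 123 in Taichung65-2x (2.30-fold lower, 1.67 to 3.18). The largest ratio belonged to PC-3p-113019_198, with 5.44 in Taichung65-4x and 16.99 in Taichung65-2x (3.13-fold lower, 1.19 to 9.62). PC-3p-120829_194 had 11.8 and 34.9 (2.96-fold lower, 1.54 to 6.08). PC-5p-193547_107 was at 5.44 and 16.0 (2.95-fold lower), and PC-5p-405211_52 at 6.34 and 16.99 (2.68-fold lower). The other 5 members, PC-3p-120213_185, PC-5p-251567_87, PC-3p-67260_339, PC-5p-90252_366 and PC-3p-87040_284, were 2.02-fold to 2.46-fold lower. On the scale of the authors the counting interval lay clear of 1 for 9 of the 10. PC-3p-120213_185 has none because its level was not a whole number of reads. The 10 were picked from the same reads for a ratio over 2, so intervals clear of 1 are favoured by the pick. Some, such as PC-3p-113019_198, passed 10 in Taichung65-2x only. As PC-3p-67260_339 and PC-3p-87040_284 are shifted by 1 base, the 10 members stand for 9 distinct sequences.

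The scale of the libraries bears on this count. With the libraries scaled to equal sums, the median of all miRNAs in both tables was 0.04 and that of the members -0.33. On that scale 1 member was higher and 4 were lower at MA, and 11.1% of all miRNAs were higher and 3.68% lower. The 4 that remained lower were PC-3p-113019_198, PC-3p-120829_194, PC-5p-193547_107 and PC-5p-405211_52. Intervals were not recomputed on that scale, where the log2 ratio of PC-3p-113019_198 moved from -1.64 to -1.34. On the scale of the authors the lower bounds were 1.19 for PC-3p-113019_198, 1.11 for PC-5p-193547_107 and 1.07 for PC-5p-405211_52. A shift of that size takes these bounds below 1. The lower bound of PC-3p-120829_194 was 1.54. Of the 30 members, 21 had the lower value in Taichung65-4x with equal sums, as did 159 of the 330 miRNAs (48.2%).

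At SCP, 22 members were tested, since the others had no listed level above 10 at this stage. In Taichung65-4x, 2 were higher and 7 were lower, where 13.4% of all 382 miRNAs tested were higher and 10.2% were lower. The other miRNAs of 21 nt were lower in 26 of 169 tests (15.4%). The median log2 ratio of the 18 members in both tables was -0.15, against -0.11 for all miRNAs. Scaled to equal sums, that median became 0.20, against 0.23 for all miRNAs, so its sign depends on the scale. On that scale 3 members were higher and 4 lower, and 22.0% of all miRNAs were higher and 4.45% lower.

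The largest ratio at SCP was that of PC-5p-114888_188, with 2.39 in Taichung65-4x, where it rests on 3 reads, and 13.3 in Taichung65-2x (ratio 5.57, 1.58 to 30.02). PC-5p-72318_316 had 65.2, 20.8 and 8.77 at PMA, MA and SCP in Taichung65-4x, against 59.2, 37.7 and 31.1 in Taichung65-2x. The ploidies were thus close at PMA and stood 3.54-fold apart at SCP (1.76 to 7.74). PC-3p-314191_76 was 2.88-fold lower and PC-5p-117761_204 was 2.85-fold lower in Taichung65-4x (1.27 to 6.99 for PC-5p-117761_204). In the other direction, PC-5p-212981_133, of 20 nt, had 32.7 in Taichung65-4x and 16.0 in Taichung65-2x (2.04-fold higher, 1.15 to 3.78). PC-5p-1920926_12, not listed for Taichung65-2x, was at least 2.31-fold higher in Taichung65-4x. Of the 7 lower members, 4 had an interval clear of 1, 1 had an interval that included 1 and 2 had none.

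The members called at more than 1 stage were 3, each lower in Taichung65-4x at MA and at SCP. PC-5p-86809_361 had 82.9, 53.4 and 23.9 at PMA, MA and SCP in Taichung65-4x, against 113, 123 and 48.9 in Taichung65-2x. At SCP it was 2.04-fold lower (1.29 to 3.30). The others were the 2 sequences shifted by 1 base. PC-3p-67260_339 had 35.3, 9.97 and 4.78 in Taichung65-4x, against 32.3, 22.6 and 10.7 in Taichung65-2x, and PC-3p-87040_284 had 31.3, 15.4 and 6.38 against 23.6, 31.1 and 13.8. None of these 3 was lower by more than 2-fold at SCP when the libraries were scaled to equal sums, nor at MA. Only PC-5p-11519_1490 at PMA, PC-3p-120829_194 at MA and PC-5p-72318_316 at SCP kept their ploidy call under all 6 alternatives run.

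**Figure D4:**
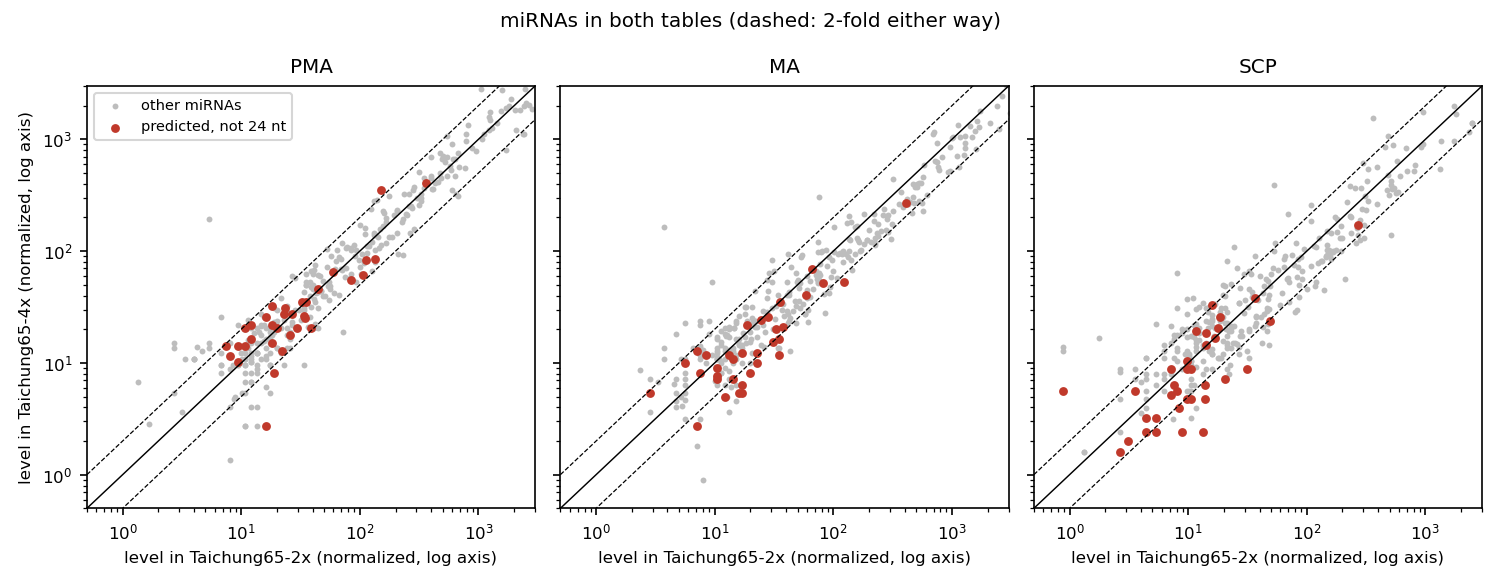
Normalized level in Taichung65-4x (vertical) against Taichung65-2x (horizontal), both log axes, for miRNAs in both tables at PMA, MA and SCP; red points are the predicted miRNAs not 24 nt, grey points all others, the solid line equality and the dashed lines 2-fold. Levels above 3000 lie outside the axes, and miRNAs listed at 0 are not drawn. PC-5p-11519_1490 stands above the upper line at PMA (349 and 152), and 26 of 30 members tested at MA lie below equality, as do 220 of all 330 miRNAs tested (21 and 159 with equal sums, not drawn).

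Some abundant members passed 2-fold between the ploidies at no stage. PC-3p-37951_581 had 85.6, 51.6 and 38.3 in Taichung65-4x, against 133, 82.1 and 36.4 in Taichung65-2x. It was 1.56-fold lower in Taichung65-4x at PMA (1.12 to 2.17) and 1.59-fold lower at MA (1.13 to 2.26). Its interval at SCP included 1. PC-5p-29441_748 had 61.1, 40.3 and 20.3 in Taichung65-4x, against 107, 59.0 and 17.8 in Taichung65-2x. PC-5p-324768_75 had 21.7, 21.7 and 25.5 in Taichung65-4x, against 18.2, 18.9 and 18.7 in Taichung65-2x, and was among the most even members across the libraries. Without replicates, this does not show that their levels were equal in the ploidies.

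How the members changed with the stage was then compared within each ploidy. Levels fell at both steps in 26 of 39 members in Taichung65-4x (66.7%) and in 26 of 43 in Taichung65-2x (60.5%), and 16 members fell throughout in both. Over all miRNAs listed for a ploidy, 46.3% took this course in Taichung65-4x and 48.8% in Taichung65-2x. The same course was found among other miRNAs not 24 nt in 64.3% for Taichung65-4x and 52.5% for Taichung65-2x. Among predicted miRNAs of 24 nt it was found in 7.95% for Taichung65-4x and 29.4% for Taichung65-2x. Levels rose at both steps in 6 of 39 members in Taichung65-4x (15.4%), where 20.9% of all miRNAs rose, and in 1 of 43 in Taichung65-2x (2.33%), where 13.9% of all miRNAs rose.

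The course of a member depends on the scale. With the libraries scaled to equal sums, 18 of 39 members fell at both steps in Taichung65-4x (31.3% of all miRNAs) and 19 of 43 in Taichung65-2x (31.8% of all). As reads over clean reads, 16 of 39 fell in Taichung65-4x (28.6% of all) and 13 of 43 in Taichung65-2x (21.9% of all). On that scale 8 members rose at both steps in Taichung65-4x (42.2% of all) and 7 in Taichung65-2x (32.1% of all). With equal sums 8 rose in Taichung65-4x (39.0% of all) and 3 in Taichung65-2x (22.9% of all).

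At the step from PMA to MA, 36 members were tested in Taichung65-4x, of which 1 was higher and 19 were lower at MA. All 397 miRNAs tested were higher in 10.3% and lower in 29.2%. The median log2 ratio of the members was -1.03, against -0.58 for all miRNAs. PC-5p-11519_1490 was 5.01-fold lower at MA (3.87 to 6.55) and PC-5p-72318_316 was 3.13-fold lower (1.87 to 5.39). PC-5p-193547_107 was 3.75-fold lower (1.38 to 11.8). PC-5p-161749_129 was 3.56-fold lower (1.49 to 9.41) and PC-3p-67260_339 was 3.55-fold lower (1.69 to 7.95). The member that was higher was PC-3p-98404_354, with 11.8 at MA and 2.72 at PMA (4.33-fold, 0.981 to 39.6). Its interval includes 1. With the libraries scaled to equal sums, 3 members were higher and 10 were lower, and the shares of all miRNAs were 19.9% and 9.07%.

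In Taichung65-2x the same step changed fewer members. Of 42 tested, 1 was higher and 13 were lower at MA, where 5.54% of all 379 miRNAs were higher and 22.2% were lower. The median log2 ratio of the members was -0.51, against -0.38 for all miRNAs. PC-3p-587957_28 had 5.66 at MA and 22.2 at PMA (3.92-fold lower, with no interval). PC-3p-75342_274, the miR2275-like sequence, was 3.00-fold lower at MA (1.91 to 4.80). PC-3p-295764_65 was 2.38-fold lower (1.21 to 4.85) and PC-5p-405211_52 was 2.30-fold lower (1.23 to 4.40). PC-5p-780875_25, of 22 nt, was at 2.83 at MA and 12.1 at PMA, a ratio of 4.28 (1.07 to 24.6) that rests on 3 reads at MA. PC-5p-796718_21, described above, was the member that was higher. Scaled to equal sums, 2 members were higher and 7 lower, against 10% and 14.2% of all miRNAs.

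From MA to SCP in Taichung65-4x, 2 of 24 members tested were higher and 10 were lower at SCP. Of all 390 miRNAs tested, 9.23% were higher and 21.3% were lower. The medians of the log2 ratios were -0.82 for the members and -0.31 for all miRNAs. PC-5p-139435_151, the minor strand of the second pair, was 7.67-fold lower at SCP (2.67 to 30.2), and PC-5p-11519_1490 was 4.17-fold lower (2.54 to 7.11). PC-5p-72318_316 and PC-5p-86809_361 followed, at 2.38-fold and 2.23-fold lower. Both members that were higher are listed for Taichung65-4x alone and passed 10 at SCP only, so the listing favoured this direction. PC-5p-1920926_12 was 2.43-fold higher, with no interval, and PC-3p-2181419_12 was 2.64-fold higher (0.912 to 9.29). With equal sums, 4 members were higher and 5 lower, against 21% and 8.46% of all miRNAs.

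In Taichung65-2x, 1 of 34 members was higher and 17 were lower at SCP than at MA, where 8.17% and 37.2% of all 355 miRNAs were higher and lower. The median was -1.001 for the members and -0.67 for all miRNAs. PC-5p-193547_107 had 2.67 at SCP and 16.0 at MA, a ratio of 6.02 (1.74 to 32.1) that rests on 3 reads at SCP. PC-5p-139435_151 was 4.60-fold lower (1.85 to 13.7), PC-5p-11519_1490 was 3.94-fold lower, and PC-5p-90252_366 and PC-3p-120829_194 were each 3.57-fold lower (1.79 to 7.77). The member that was higher was PC-3p-199234_121, of 23 nt, with 14.2 at SCP and 7.08 at MA. With equal sums, 1 member was higher and 10 lower, against 15.2% and 18.6% of all miRNAs. On the scale of reads over clean reads 3 were higher and 4 lower, against 27.3% and 7.32% of all miRNAs. The count of members lower at this step thus depends most on the scale.

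**Figure D5:**
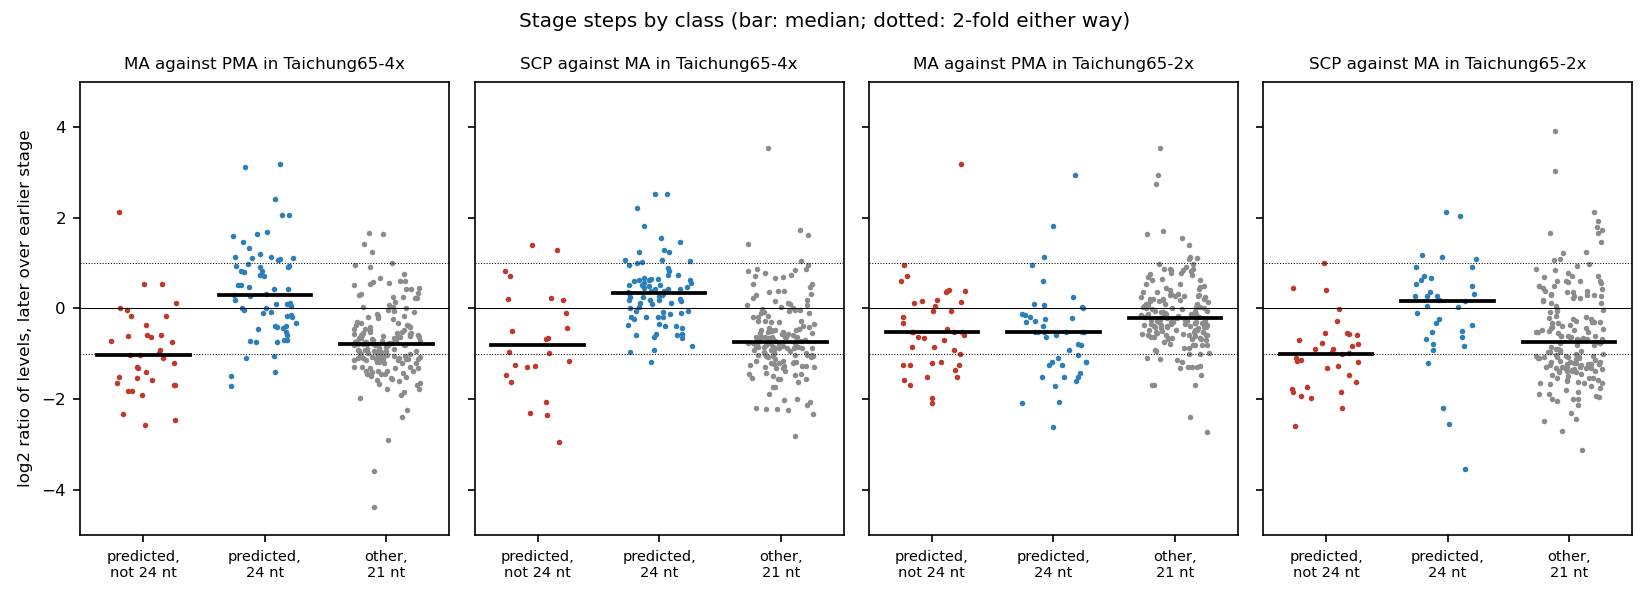
The log2 ratio of the later over the earlier stage (vertical axis) for tested miRNAs in 3 classes at the 4 stage steps, with a bar at the median and dotted lines at 2-fold; miRNAs listed at 0 are not drawn. The medians of the predicted miRNAs not 24 nt are -1.03 and -0.82 in Taichung65-4x, against -0.51 and -1.001 in Taichung65-2x, and those of the predicted miRNAs of 24 nt are above 0 at both steps in Taichung65-4x.

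The members nearest in length to the 24-nt class were set beside it. PC-3p-199234_121, of 23 nt, had 14.3, 12.7 and 14.4 at PMA, MA and SCP in Taichung65-4x, against 7.41, 7.08 and 14.2 in Taichung65-2x. It did not fall at both steps in either ploidy. The other 23-nt member, PC-5p-744469_21, and the 25-nt member, PC-5p-866084_19, rose at both steps in Taichung65-4x. PC-5p-744469_21 shares 21 bases, in capitals, with PC-3p-162663_115, a predicted miRNA of 24 nt that had 2.72, 14.5 and 17.9 in Taichung65-4x, against 10.8, 11.3 and 7.996 in Taichung65-2x.
PC-5p-744469_21: ttAAGTGGTCCAACTGAAAAAAT
PC-3p-162663_115: AAGTGGTCCAACTGAAAAAATgat
Both sequences thus had their highest level at SCP in Taichung65-4x. None of the 3 members of 23 or 25 nt fell at both steps in Taichung65-4x, as 26 of its 39 members did. However, PC-5p-744469_21 and PC-5p-866084_19 are listed for Taichung65-4x alone and stood below the listing limit at PMA. With such PMA levels they could be listed only through a higher level at a later stage, so they could not fall at both steps. Whether the course depends on length was therefore not tested.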

How the data were processed

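Small RNA libraries (TruSeq small RNA kit, single-end reads on an Illumina HiSeq2500) were made from total RNA of anthers, 1 per ploidy and stage. Reads passed the Illumina pipeline filter and were cleaned by the authors with ACGT101-miR, and hairpins were predicted with RNAfold. The deposited values are a normalized signal per miRNA and library, made by the authors with 1 factor for each library. The sources used here do not give a genome build, and no genome was used.

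The members, lists and tests were chosen with earlier results of these data known. miRNAs were matched between tables by name. For each library the step that 1 read adds to a value was recovered, and 72.3% to 76.2% of values were whole reads at a tolerance of 0.01. A listed 0 was set at 0.01 and an unlisted miRNA at 10. Counting intervals were exact conditional binomial (95%). Named members were the 10 most abundant, the 4 largest ratios in each direction per comparison among those called and reaching 20 in either library, the 4 highest listed for each ploidy alone, those called the same way at more than 1 stage, and those that the study's text names. Others named were chosen after their values were seen. The criteria for duplexes and for overlaps were set after the sequences were seen. Alternatives were equal sums, reads over clean reads, a threshold of 20, no threshold, a pseudocount of 10, and leaving unlisted miRNAs out, and counting shifted members once, the courses on other scales and the pooled ploidy calls with equal sums were added after seeing the data. The calls and intervals were also run on simulated data. The intervals were simulated without the rule for calls, so the simulation does not cover intervals of called members. Python 3.11.15, numpy 2.4.6, pandas 2.3.3, scipy 1.17.1 and matplotlib 3.10.9 were used.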

Additional observations from a re-analysis of the deposited data

Results flagged for a closer look

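Some members went in opposite directions, by more than 1.5-fold each way, under the same contrast in 2 groups. Each value below compares single libraries, and the difference was not tested. For 4x against 2x at PMA and at MA, PC-3p-120213_185 had log2 ratios of 0.60 and -1.30 (difference 1.90), PC-5p-161749_129 had 0.68 and -0.97 (1.64), and PC-5p-251567_87 had 0.84 and -1.28 (2.12). PC-3p-98404_354 had -2.57 for 4x against 2x at PMA and 0.73 at SCP (difference -3.30).

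For MA against PMA, the log2 ratios in Taichung65-4x and in Taichung65-2x were -1.21 and 0.61 for PC-3p-120829_194 (difference -1.82). They were 2.12 and -0.93 for PC-3p-98404_354 (3.04). They were -1.42 and 0.71 for PC-5p-251567_87 (-2.12). The differences given for PC-5p-251567_87 share libraries, as do those for PC-3p-98404_354, whose PMA level in Taichung65-4x rests on 2 reads.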

How the results depend on the processing

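Of 87 calls of a member in a comparison, scaling to equal sums kept 51, reads over clean reads 45, a threshold of 20 kept 47 and a pseudocount of 10 kept 22, and none turned its direction. For the ploidy comparisons, in the order PMA, MA and SCP, members lower numbered 3, 10 and 7. With equal sums, 1 was higher and 4 were lower at MA, and 4 were lower at SCP. With reads over clean reads, 3 were higher at PMA, and 1 was higher and 4 were lower at MA. Of all miRNAs, 7.05% were then higher at PMA, and 11.3% were higher and 3.68% lower at MA. A threshold of 20 left 1 of 26, 5 of 16 and 3 of 9 tested members lower. Among all miRNAs, 13 of 269, 24 of 245 and 31 of 247 were lower. A pseudocount of 10 left 1 of 43, 2 of 35 and 1 of 22 members lower. Among all miRNAs it left 9 of 397, 11 of 380 and 17 of 382 lower. At SCP it left 0 members higher, beside 21 of all 382. Without a threshold 11 of 34 were lower at SCP, beside 46 of all 357. Without unlisted members 1 of 18 was higher at SCP, beside 44 of all 314. Counting the shifted members once (added after seeing the data) left 3, 9 and 6 lower.

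For MA against PMA in Taichung65-4x, equal sums gave 3 higher and 10 lower, reads over clean reads 3 and 9, and a pseudocount of 10 gave 0 and 5. A threshold of 20 left 0 higher, and no threshold gave 2 higher. For SCP against MA in Taichung65-4x, equal sums and reads over clean reads each gave 4 higher and 5 lower, a threshold of 20 gave 1 and 4, and a pseudocount of 10 gave 0 and 2. For MA against PMA in Taichung65-2x, equal sums gave 2 higher and 7 lower, reads over clean reads 3 and 6, a threshold of 20 gave 0 and 6, and a pseudocount of 10 gave 0 and 3. For SCP against MA in Taichung65-2x, equal sums left 10 lower, reads over clean reads gave 3 higher and 4 lower, a threshold of 20 gave 0 and 10, and a pseudocount of 10 gave 0 and 7. A higher threshold tests fewer members, and a pseudocount shrinks ratios of low levels; the cause of the other changes was not tested. The splits over all miRNAs under equal sums stand beside the counts at MA, at SCP and for the stage steps, and at PMA they were 5.79% higher and 5.54% lower.

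No paired analysis was possible because each group has 1 library, so that the groups compared share fewer than 2 replicate numbers. A fit of ploidy with the 3 stages taken as pairs was not run, since each stage was compared on its own. At a level of 10, which stood for 7.36 to 12.5 reads, a 2-fold difference often cannot be separated from counting error.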
